A study of Mus musculus with 6 samples.

Results

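The mitochondrial ribosomal protein genes were taken as the rows of the deposited liver gene table that are typed as protein coding and whose symbol starts with Mrpl or Mrps and a number, leaving out pseudogene symbols. Of 30889 genes in the table, 83 symbols had this form, 5 were pseudogenes, and 78 were kept: 49 Mrpl genes, named for the large subunit, and 29 Mrps genes, named for the small subunit. The samples were liver tissue of Mus musculus after 14 days of oral dosing, 3 libraries from the control group given phosphate buffered saline and 3 from mice given Emilia sonchifolia, a medicinal herb, as a water extract. Strain, sex, age, dose and genotype are not given in the labels used here. Whether each library came from its own mouse is not in the labels, so the p-values rest on a spread between libraries that may be technical.

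The mitochondrial ribosome translates the few messages encoded in mitochondrial DNA, all of which are core subunits of the respiratory chain and ATP synthase. Its RNAs come from mitochondrial DNA, but every one of its proteins is encoded in the nucleus, made in the cytosol and imported. Some of these proteins have a bacterial counterpart of the same number, while others, mostly with the higher numbers, were added in the mitochondrial lineage. Hepatocytes are rich in mitochondria, and their respiratory chain depends on this ribosome.

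Promoters of this gene family are known for binding sites of the regulators NRF1, of the ETS-type factor GABPA and of YY1. Motifs of these 3 factors were searched on both strands in the 300 bases around each RefSeq start (250 before, 50 after; assembly GRCm38.p6): GCGCA, any base and GCGC for NRF1, CCGGAAG for ETS factors and AAGATGGC for YY1. A window was found for 69 of the 78 genes. The ETS letters were present in 26 of the 69 (37.7%) against 9.93% of 27025 genes with a window. The NRF1 letters were present in 13 (18.8%) against 5.19%, and the YY1 letters in 12 (17.4%) against 3.19%. At least 1 of the 3 motifs was found in 43 of the 69 genes (62.3%) and in 16.4% of all genes with a window. These are matches of letters, not measured binding. The 27025 genes were not limited to those tested in this liver, so the shares do not compare the family with other expressed genes. The stretches just before the starts of 3 members that passed the test below, Mrps27, which rose, and Mrpl58 and Mrpl52, which fell, are shown because the same ETS motif stood before starts that moved in opposite directions. They are written 5′ to 3′ on the + strand, end at the base before the RefSeq start, lie outside annotated exons, and have the ETS letters (CCGGAAG or its reverse complement CTTCCGG) in capitals.
Mrps27, chr13:99344706-99344785: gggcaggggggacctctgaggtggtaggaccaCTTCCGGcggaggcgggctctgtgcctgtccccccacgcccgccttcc
Mrpl58, chr11:115403602-115403751: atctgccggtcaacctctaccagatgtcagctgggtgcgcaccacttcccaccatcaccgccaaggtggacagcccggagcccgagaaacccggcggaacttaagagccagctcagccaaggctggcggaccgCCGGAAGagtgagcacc
Mrpl52, chr14:54426759-54426908: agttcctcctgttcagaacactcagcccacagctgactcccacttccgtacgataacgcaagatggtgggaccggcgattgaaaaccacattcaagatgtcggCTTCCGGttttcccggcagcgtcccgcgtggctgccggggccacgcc
Among members with a window, the ETS letters stood in 2 of the 4 that rose, in 5 of the 8 that fell and in 19 of the 57 that did not pass the test.

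Library totals ran from 51219533 to 61432016 deposited counts, with 22649 to 24178 genes above 0. Every one of the 78 members passed the filter on low counts, with 322 to 4937 counts per library. Levels are given as FPKM, the deposited unit, which scales fragments by gene length and by the number of fragments mapped in the library. Tests used edgeR's quasi-likelihood fit on the counts of all 18071 genes that passed the filter, with two-sided p-values adjusted by the Benjamini-Hochberg method and called under 0.05. "Rose" and "fell" are used only for genes past that threshold, and fold changes are extract over control.

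Control levels of the 78 members spanned 23.7-fold, from 1.78 ± 0.25 FPKM for Mrpl19 to 42.2 ± 1.69 FPKM for Mrpl12 (SD, n = 3), with a median of 9.06. Mrpl12, the stalk protein that recruits translation factors, had the highest level in both groups. Mrps21 followed at 35.5 ± 0.28 FPKM in control. Mrpl34 (26.9 ± 2.18), Mrpl14 (26.0 ± 1.65), Mrpl18 (26.0 ± 1.21) and Mrpl27 (25.5 ± 0.16) came next, and these 4 did not differ from one another beyond their spread. The large subunit genes had a control median of 9.41 FPKM and the small subunit genes of 6.003, and 11 of the 78 were above 20 FPKM while 26 were under 5. The lowest levels by the mean of all libraries were those of Mrpl19 and Mrpl48 in the large subunit and of Mrps35 and Mrps10 in the small subunit, all near 2 FPKM. These 4 genes have 5450, 8152, 8631 and 8079 bases in their annotated exons, against a family median of 2394. In control 1, Mrpl34, with 607 bases, had 915 counts and 24.6 FPKM, and Mrpl48 had 881 counts and 1.76 FPKM. The span, order and subunit medians of FPKM thus depend in part on annotated length. The order of levels was nearly the same with extract: Spearman's rho between the control and extract means was 0.986 across the 78 genes, which share the same libraries and are not independent.

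With extract, 16 of the 78 genes passed the test (20.5%, against 26.9% of all genes tested), 5 higher and 11 lower. The share that rose was 6.41% against 14.2% of all genes, and the share that fell was 14.1% against 12.8%. The share that fell was close to that of all genes and is not a result about this family. All changes were small: rises ran from 1.17-fold to 1.49-fold and falls from 0.726-fold to 0.882-fold, and no called member reached a log2 change of 1, which 954 of all genes called did. The median log2 change of the members was -0.08 against -0.02 for all genes tested, and 55 of 78 members (70.5%) lay below 0 against 51.9% of all genes. The middle of the distribution was narrow, with quartiles at -0.19 and 0.02 against -0.32 and 0.23 for all genes, beside a median standard error of 0.08 against 0.14. In CPM, counts scaled by library size and TMM factors, the 3 extract libraries lay below all 3 control libraries for 24 of the 78 genes (22.5% of all genes did so) and above them for 5 (22.2% of all genes). The number of genes that fell depended on single libraries: it was 12 without control 1, 3 without control 2, 5 without control 3, and 6 without each of the extract libraries in turn, while 3 to 5 genes rose. The share of all genes that fell moved too, to 10.9%, 7.74% and 11.4% without control 1, 2 and 3. Without extract 1, 2 and 3 it was 7.82%, 7.73% and 8.87%, beside 7.69% of the members each time. In this bulk tissue, fewer cells of a type and less RNA per cell cannot be told apart.

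**Figure D1:**
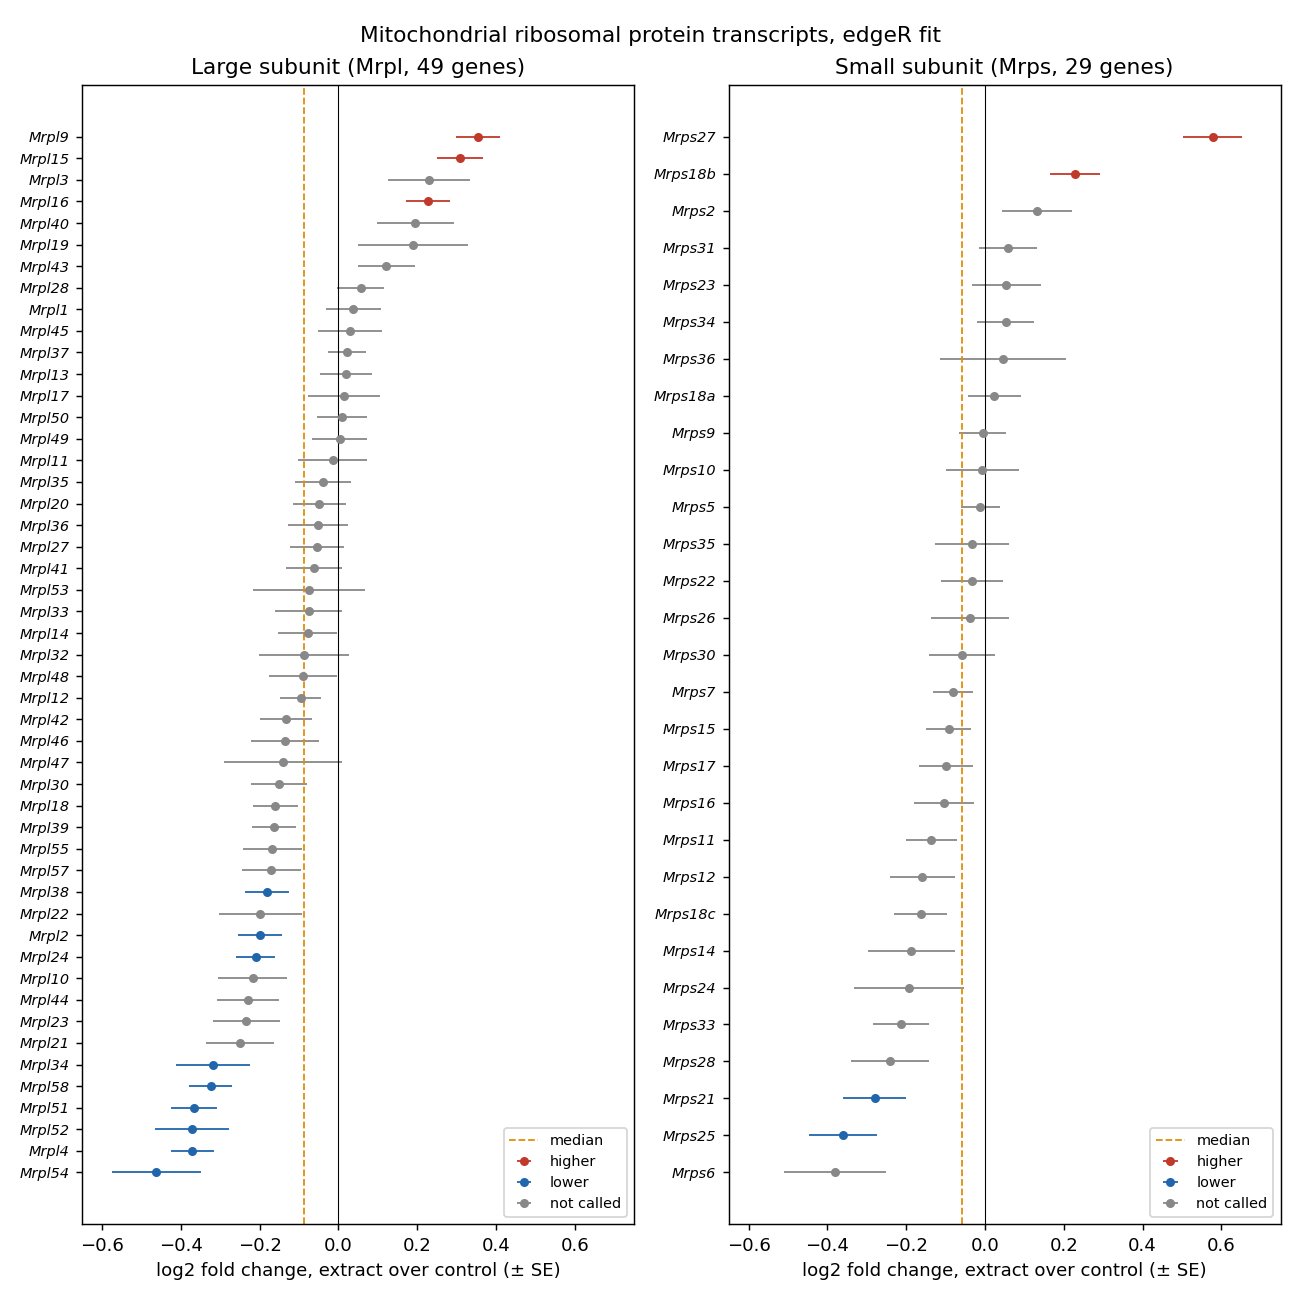
Log2 fold change of each mitochondrial ribosomal protein gene, extract over control, with its standard error (edgeR fit; left, 49 large subunit genes; right, 29 small subunit genes). Red marks the 5 genes that rose, blue the 11 that fell, grey the 62 that did not pass the test, and the dashed lines are the medians of -0.09 and -0.06.

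The 2 subunits had nearly the same centre. Of the 49 large subunit genes 3 rose (6.12%) and 9 fell (18.4%), with a median log2 change of -0.09. Of the 29 small subunit genes 2 rose and 2 fell (6.90% each), with a median of -0.06. Of all genes 14.2% rose and 12.8% fell. The medians were 0.03 apart, and whether the subunits differed was not tested. Mammalian structures place Mrps30 and Mrps18a in the large subunit, and Mrps36 is no longer counted as a ribosomal protein. With these moved and left out the counts of called genes stayed at 3 and 9 of 51 and at 2 and 2 of 26, and the order of the medians turned, at -0.08 for the large and -0.09 for the small subunit.

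The summed level of the large subunit genes was 566 ± 16.5 FPKM in control and 502 ± 10.9 FPKM with extract (SD, n = 3), and that of the small subunit genes was 265 ± 7.05 and 240 ± 3.80 FPKM. Every extract library lay below every control library in both sums. The difference from control was -11.4% for the large subunit sum, -9.47% for the small subunit sum and -3.96% for the total of all FPKM; these sums were not tested. In TMM-scaled CPM the difference was -5.36% for the large subunit sum and -3.25% for the small subunit sum, with the small subunit groups then overlapping (650 to 672 with extract, 664 to 701 in control). The ratio of large to small subunit FPKM was 2.13, 2.15 and 2.13 in the control libraries and 2.12, 2.12 and 2.03 in the extract libraries. In TMM-scaled CPM it was 1.98, 1.99 and 1.97 in control and 1.96, 1.94 and 1.902 with extract. In both units all 3 extract libraries lay below all 3 control libraries, by a narrow gap, and extract 3 was the lowest; this ratio was not tested. Share of the transcriptome was likewise lower with extract: the 78 genes held 0.238% ± 0.0063 of all FPKM in control and 0.221% ± 0.0017 with extract.

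**Figure D2:**
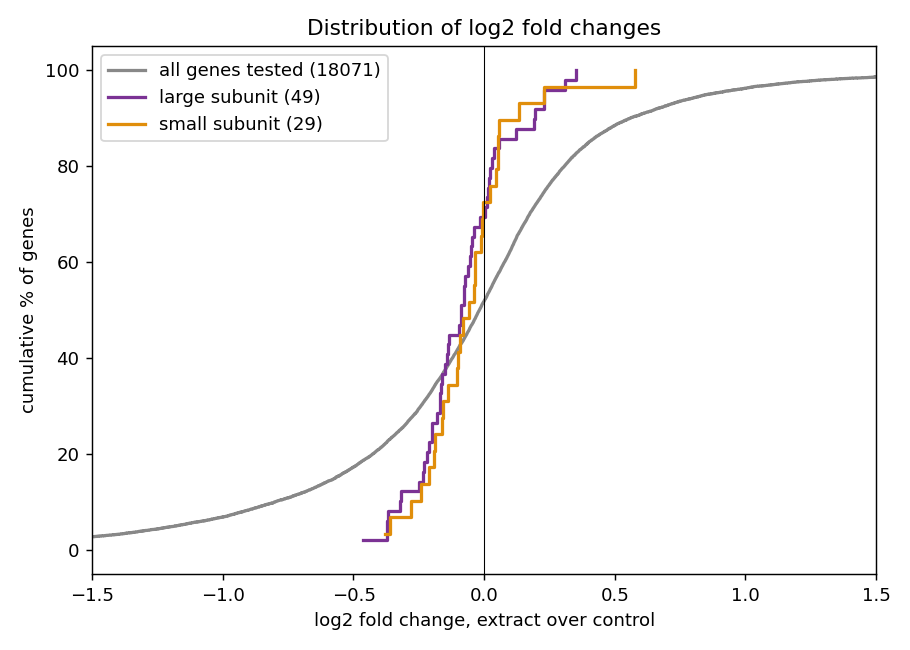
Cumulative share of genes (percent) by log2 fold change, extract over control, for the 49 large subunit genes, the 29 small subunit genes and all 18071 genes tested. Both subunit curves are steeper than the curve of all genes and cross 0 at about the same height, 69.4% of the large and 72.4% of the small subunit genes being below 0 against 51.9% of all genes.

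Mrpl4, the counterpart of a bacterial protein whose loop lines the peptide exit tunnel, gave the smallest p among the genes that fell. Its levels were 10.4, 10.8 and 10.4 FPKM in control and 7.93, 8.09 and 7.46 FPKM with extract. The groups were well apart, and the log2 change was -0.37 ± 0.05 (SE), 0.773-fold, with an adjusted p of 0.00186. Mrpl24, whose bacterial counterpart sits at the mouth of the same tunnel, stood at 23.2, 22.8 and 21.1 FPKM in control and at 18.6, 18.5 and 18.5 FPKM with extract. The extract libraries were nearly identical and all lower. The fall of Mrpl24 was 0.865-fold (adjusted p = 0.0167), and without control 1, control 2 or any 1 of the extract libraries its adjusted p was 0.0501 to 0.0689.

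The genes Mrpl51, Mrpl54 and Mrpl52 fell and encode proteins with no bacterial counterpart. Mrpl51 stood at 8.81, 9.79 and 9.46 FPKM in control and at 6.99, 6.80 and 7.06 FPKM with extract, 0.776-fold with an adjusted p of 0.00265. Mrpl54 had the largest fall of all members, from 11.9, 13.7 and 13.9 FPKM to 8.90, 10.5 and 8.09 FPKM, a log2 change of -0.46 ± 0.11 with an adjusted p of 0.0190. Its groups did not overlap, but the spread within each was wide, and without control 2, control 3, extract 1 or extract 3 the adjusted p was 0.0532 to 0.0850. Mrpl52 went from 17.3, 20.1 and 20.9 FPKM to 14.9, 13.1 and 15.1 FPKM, 0.773-fold with an adjusted p of 0.0217, which became 0.0634 to 0.0832 without control 2, control 3, extract 1 or extract 2. Mrpl58, a peptidyl-tRNA hydrolase built into the large subunit that can release stalled ribosomes, stood at 7.09, 7.22 and 7.16 FPKM in control and at 5.55, 5.65 and 5.22 FPKM with extract. Both groups were tight and apart, with a change of 0.799-fold and an adjusted p of 0.00368. The other 3 large subunit genes that fell, named here after their values were seen, were Mrpl2 (0.871-fold, adjusted p = 0.0338), Mrpl34 (0.802-fold, adjusted p = 0.0394) and Mrpl38 (0.882-fold, adjusted p = 0.0477). Each of these 3 missed the threshold without any 1 of at least 4 of the 6 libraries.

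All 3 large subunit genes that rose are numbered after bacterial proteins. Mrpl9 stood at 9.83, 9.45 and 8.96 FPKM in control and at 11.3, 11.9 and 11.4 FPKM with extract, 1.28-fold with an adjusted p of 0.00272. Mrpl15 went from 4.45, 4.46 and 4.59 FPKM to 5.55, 5.05 and 5.44 FPKM, 1.24-fold with an adjusted p of 0.00587. Mrpl16, whose bacterial counterpart lies near the site where aminoacyl-tRNA is received, went from 7.02, 7.20 and 7.004 FPKM to 7.76, 7.89 and 8.15 FPKM, 1.17-fold with an adjusted p of 0.0179. In each of the 3 genes the lowest extract library was above the highest control library. The call of Mrpl16 was lost without extract 3 (adjusted p = 0.0662). Of the 28 large subunit genes numbered after bacteria 3 rose and 4 fell, and of the 21 with higher numbers none rose and 5 fell, with medians of -0.07 and -0.14. The shares of the first class, 10.7% and 14.3%, were near the 14.2% and 12.8% of all genes, and in the second class 23.8% fell. Whether these 2 classes differed was not tested.

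The stalk and its base did not pass the test. Mrpl12 was at 40.4, 43.8 and 42.5 FPKM in control and at 36.3, 38.2 and 39.2 FPKM with extract. Its groups did not overlap in FPKM, yet the log2 change on scaled counts was only -0.10 ± 0.05, with an adjusted p of 0.217 in edgeR and of 0.0484 with limma on the FPKM. Mrpl10, which anchors the stalk, had a log2 change of -0.22 ± 0.09 (adjusted p = 0.107), which reached an adjusted p of 0.0348 without extract 2. Mrpl11, its neighbour at the stalk base, had a change of -0.01 ± 0.09. Mrpl45, which helps to hold the ribosome at the inner membrane, had a change of 0.03 ± 0.08. For Mrpl11 and Mrpl45 the sign itself changed between alternative settings, so no direction can be given.

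Mrps27, a pentatricopeptide repeat protein of the small subunit with no bacterial counterpart, had the largest change of all 78 genes. It stood at 5.92, 6.63 and 5.80 FPKM in control and at 8.12, 9.13 and 8.99 FPKM with extract. The lowest extract library was well above the highest control library, and the log2 change was 0.58 ± 0.08, 1.49-fold, with an adjusted p of 0.00115. Mrps18b, 1 of 3 paralogs numbered 18, went from 10.1, 10.1 and 9.03 FPKM to 11.3, 10.7 and 10.7 FPKM. That rise of 1.17-fold (adjusted p = 0.0310) was narrow, since the groups lay close together, and without any 1 library other than control 1 its adjusted p was 0.0585 to 0.0793. The call of Mrps18b was also lost with library totals (0.0679), with upper quartile factors (0.0722) and with limma on FPKM (0.0722). The other paralogs did not pass the test: Mrps18a had a log2 change of 0.02 ± 0.07 and Mrps18c of -0.16 ± 0.07 (adjusted p = 0.115).

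In the small subunit 2 genes fell. Mrps25, a protein added in the mitochondrial lineage, stood at 3.43, 3.49 and 3.31 FPKM in control and at 2.22, 2.81 and 2.60 FPKM with extract, 0.779-fold with an adjusted p of 0.0174. Every extract library was below the controls, and without control 2 the adjusted p was 0.0650. Mrps21, second in the family by FPKM, went from 35.2, 35.7 and 35.5 FPKM to 29.4, 25.04 and 29.5 FPKM, 0.823-fold with an adjusted p of 0.0328. The controls were within 1 FPKM of each other and extract 2 was the lowest library. Leaving out any 1 library other than extract 3 raised the adjusted p of Mrps21 to 0.0613 to 0.0896.

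Mrps6 had the lowest log2 change of the small subunit genes, -0.38 ± 0.13, and did not pass the test (adjusted p = 0.0627). Its levels were 4.13, 5.44 and 5.38 FPKM in control and 3.56, 3.79 and 3.65 FPKM with extract, so that control 1 lay nearer to the extract libraries than to the other controls. Without control 1 the adjusted p of Mrps6 was 0.0169. Mrps12, part of the decoding centre, had a change of -0.16 ± 0.08 (adjusted p = 0.193). Among the small subunit genes highest in FPKM, Mrps7 went from 21.8 ± 0.92 to 19.7 ± 0.42 FPKM and Mrps34 from 18.0 ± 0.23 to 17.9 ± 1.95 FPKM. Neither passed the test (adjusted p of 0.276 and 0.641). Mrps30 had a change of -0.06 ± 0.08 and Mrps36 of 0.05 ± 0.16.

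**Figure D3:**
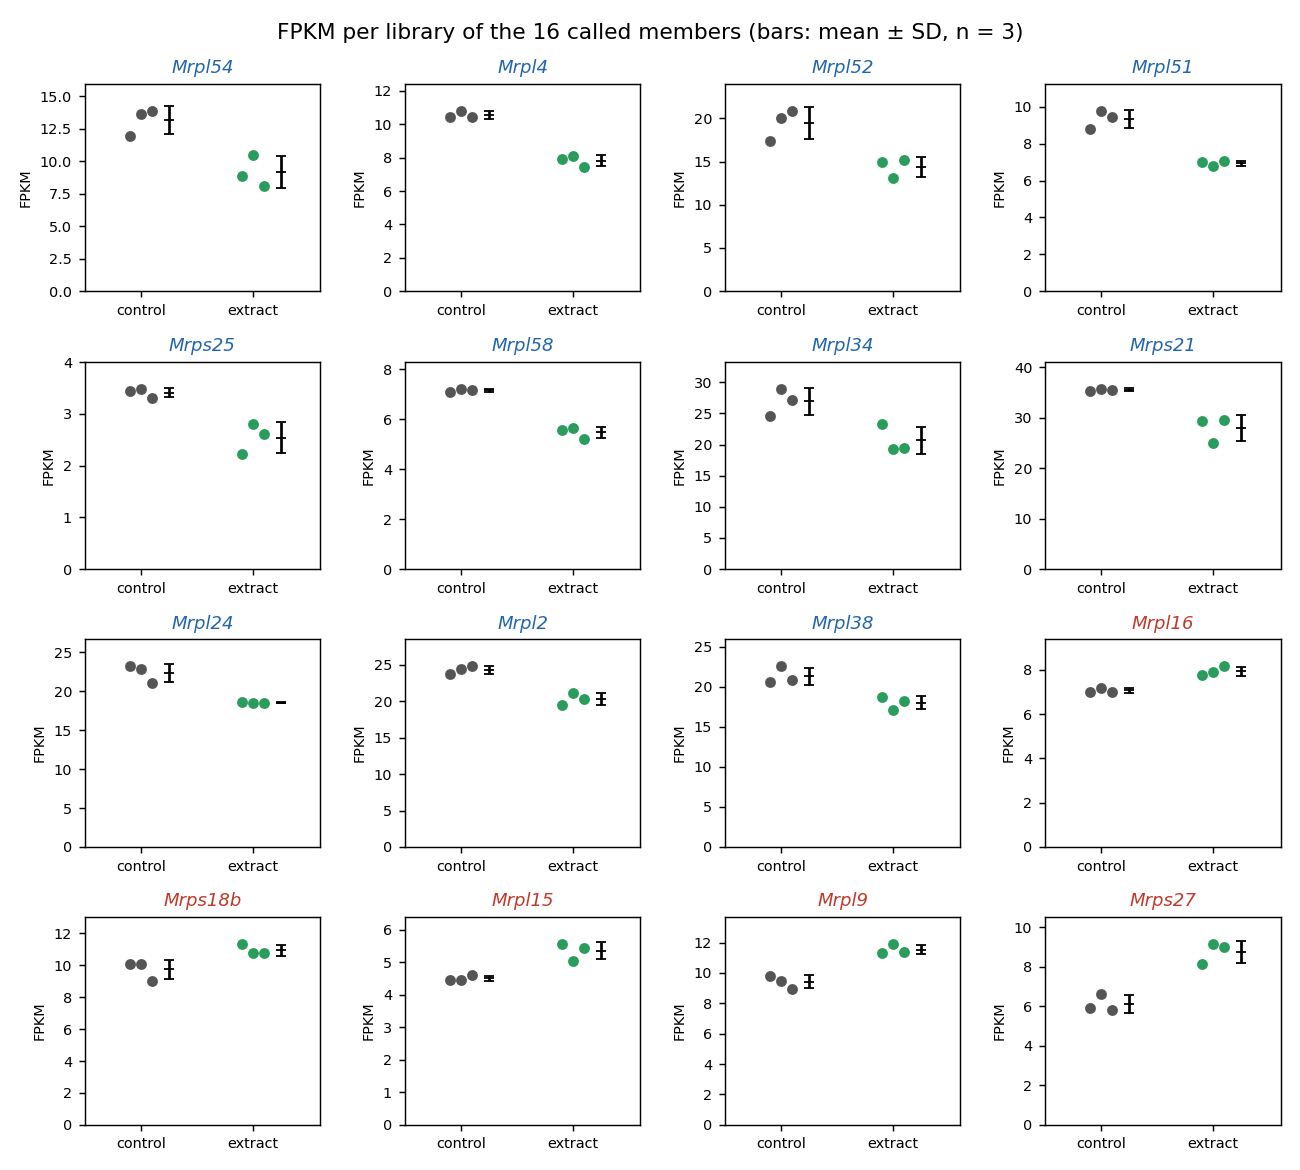
Deposited FPKM in each library for the 16 genes that passed the test, control in grey and extract in green, with mean ± SD (n = 3) beside the points; blue titles fell and red titles rose. In every panel the 3 extract libraries lie wholly below or wholly above the 3 control libraries, for example 8.12 to 9.13 against 5.80 to 6.63 FPKM for Mrps27. The genes were picked by their p in these same libraries, so groups lying apart add no support to the calls. In TMM-scaled CPM the groups lay apart for 22.2% of all genes tested upward and for 22.5% downward.

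Of the 16 calls, 6 were made under each of the 17 alternative settings (other scalings, DESeq2, limma on FPKM, other filters, the replicate number as a block and leaving out each library): Mrps27, Mrpl9 and Mrpl15, which rose, and Mrpl4, Mrpl51 and Mrpl58, which fell. All 16 kept their direction under all 17. Their groups did not overlap in TMM-scaled CPM, so leaving out 1 library could hardly turn a direction, and this adds little support. Another 15 members that were not called passed the threshold under at least 1 of them. On FPKM as deposited, limma called 4 members higher (13.9% of all genes on that scale) and 22 lower (20.7%), compared with 5 and 11 on scaled counts.

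Shorter genes had lower changes, in this family and among all genes. Exonic length, the union of a gene's annotated exons in GENCODE M21, had a median of 2394 bases in the family (607 to 8631) and of 3662 bases over all tested genes with a length. Spearman's rho between length and log2 change was 0.323 over the 78 members and 0.147 over 18044 genes, all from the same 6 libraries. Among genes under 1000 bases the median log2 change was -0.16 for all genes and -0.20 for the 9 members, of which 3 fell and none rose, while 11.5% of all genes in that class fell and 5.37% rose. At 5000 bases or more it was 0.07 for all genes and -0.01 for the 14 members, of which 1 rose and 1 fell, while 21.3% of all genes in that class rose and 10.2% fell. Among the 39 shorter members (607 to 2255 bases) 2 rose and 6 fell, with a median of -0.14. Among the 39 longer members (2533 to 8631 bases) 3 rose and 5 fell, with a median of -0.04. Shares of all genes over these 2 ranges were not computed. In the classes from 1000 to below 3000 bases, 15.3% to 16.4% of all genes fell and 6.89% to 11.0% rose. From 3000 to below 5000 bases 13.3% fell and 13.8% rose. The counts of called genes among the shorter and longer members are therefore not a result about this family. The part of length in the members' changes was not tested.

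**Figure D4:**
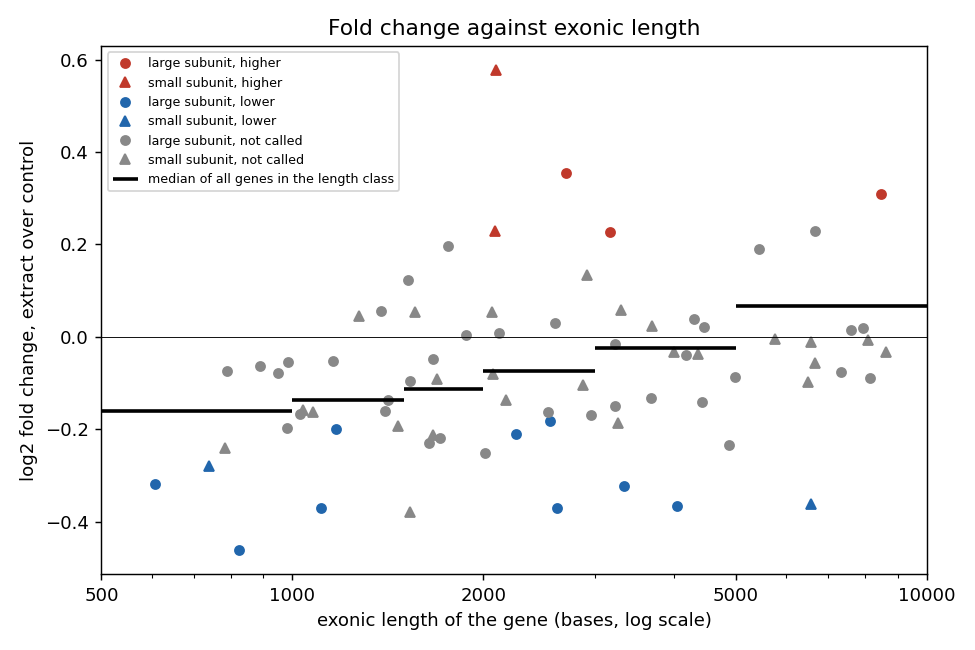
Log2 fold change (extract over control) of each member against its exonic length in bases (log axis); circles are large and triangles small subunit genes, red rose, blue fell, grey did not pass the test. Black bars are the medians of all genes tested in each length class, which climb from -0.16 under 1000 bases to 0.07 at 5000 bases or more.

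The 78 genes lie on 17 chromosomes, with 11 on chromosome 11 and 8 on chromosome 17, and all 78 lie within the gene of the same identifier in GENCODE M21. A protein-coding neighbour that is transcribed in the opposite direction and starts within 1000 bases was tested for 23 of the 78 (29.5%), against 10.1% of 14635 protein-coding genes tested. Both genes were called in 2 of these 23 pairs. Of all genes tested 26.9% were called, and the share of all such pairs with both genes called was not computed. The count of 2 is therefore not a result about this family. Mrps27 (chr13:99344786-99415562, + strand) rose with Ptcd2, another pentatricopeptide repeat gene, whose log2 change was 0.21 (adjusted p = 0.0323). The call of Ptcd2 was lost under DESeq2, under library totals or upper quartile factors, with limma on FPKM and without any 1 library other than extract 1 (adjusted p of 0.0704 to 0.103 without a library). Mrps18b (chr17:35910379-35916389, - strand) rose while Ppp1r10, a regulatory subunit of protein phosphatase, fell by 1.02 on the log2 scale (adjusted p = 1.59e-05). Mrpl54 and Mrpl51 fell beside neighbours, Apba3 and Ncapd2, with changes of -0.08 and 0.01 that did not pass the test.

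Exons of 33 members overlap exons of another gene, in 28 cases on the opposite strand. The sources used here do not state that the counting used strand, so reads of such genes may be shared with their partners. This concerns 7 of the 16 called genes. Mrpl9 overlaps Oaz3, Mrpl24 overlaps Rrnad1, Mrps25 overlaps Nr2c2, and Mrpl58, Mrps18b and Mrps27 overlap antisense or noncoding transcripts, all on the opposite strand, while Mrpl51 holds a miRNA on its own strand.

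Other genes of mitochondrial translation were called in both directions. In the list of 15 translation factors and related proteins 3 rose (20%, against 14.2% of all genes) and none fell, with a median log2 change of 0.16. Gfm1, the elongation factor that moves the ribosome along, went from 10.6 ± 0.79 to 13.0 ± 0.22 FPKM (adjusted p = 0.00450). Taco1, a translational activator of cytochrome oxidase, went from 7.72 ± 0.59 to 9.76 ± 0.32 FPKM (adjusted p = 0.00641). Letm1, which is not itself a translation factor, went from 3.79 ± 0.14 to 4.68 ± 0.13 FPKM (adjusted p = 0.00116). Of the 5 ribosomal proteins with other symbols none rose and 2 fell (40%, against 12.8% of all genes). These were Aurkaip1 of the small subunit, from 19.6 ± 0.79 to 15.6 ± 0.06 FPKM (adjusted p = 0.00617), and Gadd45gip1 of the large subunit, from 7.01 ± 0.30 to 5.41 ± 0.35 FPKM (adjusted p = 0.0135), whose adjusted p was 0.0544 without extract 2 and 0.0535 without extract 3. The other 3 did not pass the test, with log2 changes of -0.03 for Dap3, 0.20 for Ptcd3 and -0.22 for Chchd1. Ptcd3 reached an adjusted p of 0.0465 without control 3, and Chchd1 of 0.0170 without control 1. Of 30 assembly and ribosomal RNA modification genes 1 rose (3.33%, against 14.2% of all genes), and the list's median was -0.02. This was Tfb1m, which methylates the small ribosomal RNA (log2 change 0.59, adjusted p = 0.0233). The adjusted p of Tfb1m was 0.0502 to 0.0829 without control 2, control 3, extract 1 or extract 3. Both ribosomal RNAs, mt-Rnr1 and mt-Rnr2, had changes of 0.00 and -0.13 (adjusted p of 0.982 and 0.343), but capture on oligo(dT) beads makes their levels uncertain.

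Of 22 mitochondrial tRNA synthetases and related enzymes 4 rose (18.2%, against 14.2% of all genes) and 1 fell, with a median of 0.10. Without control 2 or extract 2 only 2 of them rose, and without control 2 or any 1 extract library none fell. Of 16 genes for transcription, replication and RNA handling of mitochondrial DNA 4 rose (25%) and 1 fell (6.25%), beside 14.2% and 12.8% of all genes. Their median was 0.03, and without extract 3 it was 2 that rose. The RNA-binding partners Lrpprc and Slirp, which form a complex that keeps mitochondrial messages stable, moved apart: Lrpprc rose from 7.42 ± 0.59 to 9.68 ± 0.24 FPKM (log2 change 0.44, adjusted p = 0.00153), and Slirp fell from 4.57 ± 0.50 to 2.88 ± 0.12 FPKM (log2 change -0.61, adjusted p = 0.00248). Tfam, which packages and transcribes mitochondrial DNA, rose from 6.01 ± 0.25 to 6.71 ± 0.34 FPKM (adjusted p = 0.0366), a call lost with library totals, upper quartile factors or limma on FPKM and without control 1, control 2, extract 1 or extract 3 (adjusted p of 0.0935 to 0.0959 without a library), and Polrmt, the polymerase, had a change of 0.14 that did not pass the test.

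Among 10 regulators of mitochondrial biogenesis 2 rose (20%) and 3 fell (30%), beside 14.2% and 12.8% of all genes, with a median of -0.05. The coactivator Ppargc1a fell from 2.44 ± 0.22 to 1.26 ± 0.06 FPKM (log2 change -0.89, adjusted p = 0.000320). The related coactivators Ppargc1b and Pprc1 fell too, with log2 changes of -0.65 and -0.62. The adjusted p of Ppargc1b was 0.0580 to 0.0716 without control 1, control 2, extract 2 or extract 3. Myc, a transcription factor that drives ribosome production, rose from 1.67 ± 0.31 to 6.11 ± 0.48 FPKM (log2 change 1.92, adjusted p = 6.58e-05). Gabpa, the DNA-binding subunit of an ETS-type factor, rose from 5.69 ± 0.37 to 6.76 ± 0.14 FPKM (adjusted p = 0.00924). Nrf1 and Esrra did not pass the test, with changes of 0.02 and 0.05.

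Of 83 nuclear genes of oxidative phosphorylation 35 fell (42.2%) and 6 rose, with a median of -0.16. That count rested on single libraries: 11 fell without control 2, 10 without extract 1, 8 without extract 2 and 18 without extract 3, and 8 of 83 stands beside 7.73% of all genes that fell without extract 2. Of 83 cytosolic ribosomal protein genes 43 fell (51.8%) and 4 rose, with a median of -0.23. There 28 fell without control 2, 25 without extract 1 and 22 without extract 2, and 1 or 2 rose without any 1 library other than control 3. The 42.2% and 51.8% stand beside the 12.8% of all genes that fell with all 6 libraries. Of all genes, 7.74% fell without control 2, 7.82% without extract 1, 7.73% without extract 2 and 8.87% without extract 3. The differences between lists were not tested. Cytosolic ribosomal protein genes have many near-identical copies, so single values there are uncertain. Of the 13 oxidative phosphorylation genes on mitochondrial DNA, the messages that this ribosome translates, 6 rose (46.2%, against 14.2% of all genes). None fell, and the median was 0.10. The highest change was that of mt-Nd5, from 534 ± 19.8 to 852 ± 13.1 FPKM (log2 change 0.73, adjusted p = 1.98e-05). The medians of the cytosolic, nuclear oxidative phosphorylation, translation factor and mitochondrially encoded lists kept their signs under all 17 settings, while those of the assembly, transcription and regulator lists, which lie near 0, changed sign under some.

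**Figure D5:**
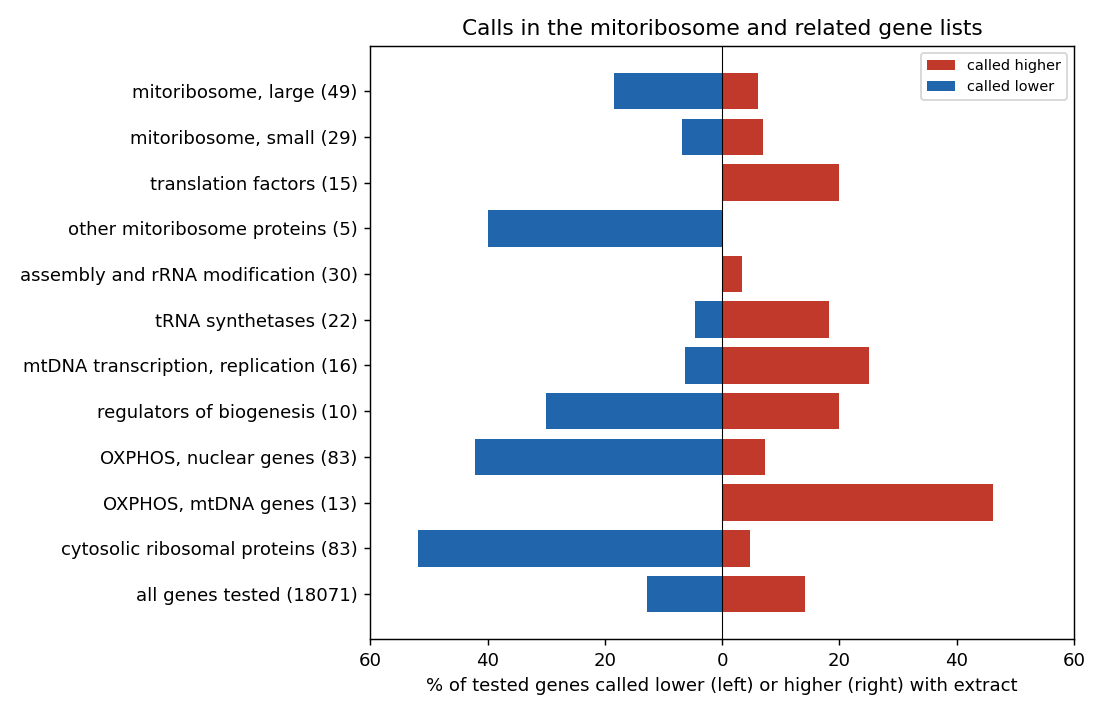
Percent of tested genes called lower (blue, to the left) or higher (red, to the right) with extract, for both subunits of the mitochondrial ribosome, 9 related gene lists and all genes tested, with the number tested in parentheses. Large subunit genes fell in 18.4% and small subunit genes in 6.90%, against 12.8% of all genes, with all 6 libraries. Of nuclear oxidative phosphorylation genes 42.2% fell, and of cytosolic ribosomal protein genes 51.8%. Without extract 2 the counts behind the 42.2% and 51.8% went from 35 to 8 and from 43 to 22, beside 7.73% of all genes that fell.

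Markers of liver cell types moved with the groups as well. The counts below stand beside the 14.2% of all genes that rose and 12.8% that fell with all 6 libraries. On leaving out 1 library, 9.40% to 13.5% of all genes rose and 7.73% to 11.4% fell. Of 9 hepatocyte markers, 4 rose and 2 fell (3 to 5 rose and 0 to 3 fell on leaving out 1 library), and their summed level was 38358 to 47244 FPKM in control and 38445 to 39213 FPKM with extract. All 7 tested markers of red blood cells fell, from a summed 1272 to 1617 FPKM to 198 to 236 FPKM. Without control 1 it was 6 of 7 tested, without control 2 it was 5 of 7 and without control 3 all 8 tested. Without extract 1 or extract 2 it was 5 of 8, and without extract 3 it was 6 of 8. Of 12 leukocyte markers 9 fell (54.5 to 109 FPKM, then 11.3 to 14.6 FPKM), or 5 without control 2, extract 1 or extract 3. All 8 Kupffer cell markers fell (341 to 349 FPKM, then 204 to 219 FPKM), or 7 without control 1, control 3, extract 1 or extract 2. Of 6 endothelial markers 4 fell, but 2 without control 1, control 2 or extract 2 and 1 without control 3 or extract 1. Of 5 cholangiocyte markers 1 fell, but 3 without control 1. Of 6 stellate cell markers 2 rose and 1 fell; 1 rose and none fell without control 1, control 2 or extract 3, and none was called without extract 1 or extract 2. No marker of muscle or exocrine pancreas passed the test with all 6 libraries, but without control 3 all 6 pancreas markers were called higher, with a median log2 change of 7.64, and 1 of 5 muscle markers. Their sums were uneven between control libraries, at 0.789 to 183 FPKM for 5 muscle genes against 170 to 244 FPKM with extract, and at 5.66 to 51.3 FPKM for 6 pancreas genes against 50.3 to 58.5 FPKM. No marker of these lists was at 0 in every library. The part of these cells in the changes of the mitochondrial ribosomal protein genes was not tested.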

How the data were processed

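Liver RNA was captured on oligo(dT) beads and sequenced, per the labels' protocols. Tools named in the submitters' processing notes are HISAT2 2.0.4, StringTie 1.3.4d, cutadapt 1.9 and edgeR; the genome build and any use of strand are not given in the sources used here. Positions were matched to GENCODE M21, which holds 30796 of the 30889 identifiers. The deposited estimated counts are whole numbers per gene and were used without rounding; values of 4 are more frequent (6292 entries) than values of 3 (4117) or 5 (2133), so a count may not be 1 read. The FPKM values were deposited by the authors, per the file headers. Another 6 columns of per-sample values match no sample and were not used.

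Genes were tested with edgeR 4.0.16 (R 4.3.3; filterByExpr, TMM, quasi-likelihood test, Benjamini-Hochberg over 18071 genes); no covariate was used. Every library held at least 51219533 counts. Alternatives were DESeq2 1.42.0, limma 3.58.1 on log2(FPKM + 0.5) or log2(FPKM + 0.1) for genes with a mean of at least 0.5 FPKM or all genes, other scalings and filters, counts divided by 4, the replicate number as a block, and leaving out each library. Scripts were tested on simulated counts in which 200 of 18071 genes, drawn at random, were changed. There edgeR recovered 53% of the genes changed by 1 log2 unit and 75% of those changed by 2. Of its 142 calls 14 were false. No called member here reached a log2 change of 1. The simulation was also unlike these data, in which 26.9% of all genes were called. The members had a median standard error of 0.08 against 0.14 for all genes. The recovery rates therefore do not carry over to the members.

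A row was taken as protein coding where its listed types included that type. Genes named with values were, in each subunit, up to 6 called in each direction with the smallest p, the 3 highest and 2 lowest by mean FPKM, the largest rise and fall, and 11 fixed members; in other lists, up to 3 called genes and a fixed set. Ppargc1b, Apba3, Ncapd2, Ptcd2 and Ppp1r10 fall outside this rule and were chosen after their values were seen. The members and lists were chosen with earlier results of these data known. Promoter sequences are from RefSeq (GRCm38.p6).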

Additional observations from a re-analysis of the deposited data

How the results depend on the processing

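Under library totals the large subunit genes that fell numbered 14, the small subunit genes that rose 1 and that fell 4, with medians of -0.14 and -0.11 for the large and small subunit; under upper quartile factors they numbered 14, 1 and 4, with medians of -0.13 and -0.10. With limma on log2(FPKM + 0.5) they numbered 16, 1 and 6 (medians -0.14 and -0.10), with a pseudocount of 0.1 also 16, 1 and 6 (medians -0.15 and -0.12), and with no filter the small subunit gave 1 and 4 (medians -0.14 and -0.10). With limma on FPKM scaled by TMM factors, chosen after seeing the data, 14 large and 5 small subunit genes fell. The shares of all genes tested moved as well. Under library totals 15.7% fell and 11.7% rose, and under upper quartile factors 15.3% fell and 12.0% rose. With limma they were 20.7% and 13.9% at 0.5, 20.6% and 13.8% at 0.1, and 7.67% and 5.04% with no filter. On TMM-scaled FPKM 17.1% fell and 17.6% rose, beside 12.8% and 14.2% in the main test. Moving Mrps30 and Mrps18a and leaving out Mrps36 gave a small subunit median of -0.0869. Leaving out 1 library at a time, 3 to 9 large subunit genes fell, 1 to 2 small subunit genes rose and 0 to 3 fell, the medians ran from -0.125 to -0.0763 and from -0.0985 to -0.0333, and 3237 to 4706 of all genes were called. Why these counts moved was not tested. DESeq2, RLE factors, no filter on low counts and counts divided by 4 kept the subunit counts and the count of all genes called within 1.5 times. With no filter on low counts, 22 in place of 35 nuclear oxidative phosphorylation genes fell and 2 in place of 4 cytosolic ribosomal protein genes rose. Of all genes tested without that filter, 6.23% fell and 7.36% rose.

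The replicate number as a block gave 5 large subunit genes lower, 1 small subunit gene higher and 1 lower, and 3746 of all genes. With that block 9.42% of all genes fell and 11.3% rose. The correlations of same-numbered libraries' deviations were -0.12, -0.03 and -0.09, beside -0.07 to 0.15 for libraries with different numbers. No pairing by number was seen, but deviations from means of 3 libraries cannot exclude it.

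Log2 changes near 0 turned sign for 9 named members, none with an adjusted p under 0.724. Under library totals these were Mrpl45 (-0.0196), Mrps18a (-0.0252) and Mrps36 (-0.00353), and under upper quartile factors Mrpl45 (-0.0129) and Mrps18a (-0.0188). With limma on FPKM at 0.5, filtered or not, they were Mrps34 (-0.0126), Mrpl45 (-0.0298), Mrps18a (-0.0317) and Mrps36 (-0.00657), and at 0.1 Mrps34 (-0.013), Mrpl45 (-0.0318), Mrps18a (-0.0343) and Mrps36 (-0.00617). Leaving out 1 library, the ranges were -0.0914 to 0.0416 for Mrpl11, -0.0315 to 0.0801 for Mrpl45, -0.0985 to 0.0534 for Mrps10, -0.0239 to 0.0672 for Mrps18a, -0.101 to 0.041 for Mrps30, -0.0275 to 0.114 for Mrps34, -0.101 to 0.0377 for Mrps35, -0.0731 to 0.21 for Mrps36 and -0.0873 to 0.00812 for Mrpl27. The median of all genes, -0.02, was 0.00074 with limma on TMM-scaled FPKM, and no scaling moved it by 0.1. The median standard error of a member's log2 change was 0.08 with 3 libraries a group.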

Other observations

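Of the 5 pseudogenes left out by their symbols, 3 had enough counts to be tested and none was called by edgeR. Mrpl48-ps was the highest, at 8.07, 10.7 and 7.09 FPKM in control and at 6.78, 8.23 and 9.52 FPKM with extract. These levels were above those of its parent gene Mrpl48, which stood at 1.97 ± 0.21 FPKM in control and 1.77 ± 0.09 FPKM with extract. In counts the order was the reverse, with 881 to 1306 for Mrpl48 and 278 to 502 for Mrpl48-ps. FPKM scales by gene length, and the exons of Mrpl48 span 8152 bases. Reads of the pair may be split between near-identical copies, which was not tested, so both values are uncertain. The other tested pseudogenes, Mrpl23-ps1 and Mrpl27-ps, had log2 changes of -0.94 and -0.47 with adjusted p-values of 0.185 and 0.269.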
